A study of Mus musculus with 16 samples.

Results

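The TNF superfamily ligands and receptors examined here were 39 of the 18132 genes in the array table, 15 ligands and 24 receptors. They were chosen by symbol alone, as TNF, LTA, LTB, FAS, FASL, CD40 or LTBR, or as TNFRSF or TNFSF followed by a digit. Expression was measured on 16 Illumina Mouse 8 arrays. The cells were primary mammary fibroblasts, grown out of the inguinal glands of female 129S6 mice aged 8 to 10 weeks. The cultures were MEKK1+/+ or MEKK1-/-, and were either left in growth medium with 10% FBS (untreated) or kept for 8 h in such medium taken from cultures of MDA-MB-231, a human breast tumor cell line (conditioned medium, CM). Genotype and treatment gave 4 groups, with 4 culture replicates in each. The methods give 3 mice per genotype and the mouse behind each culture is not named, so the p values measure the spread between cultures, which may in part be technical.

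Ligands of the TNF superfamily are mostly membrane proteins that can be cleaved from the cell surface, and they act as trimers that bring their receptors together. Receptors with a death domain, such as FAS and TNFRSF1A, can start caspase cascades, while others recruit TRAF adaptor proteins and activate NF-kB and MAP kinases. Fibroblasts carry several of these receptors, and activated macrophages are a well known source of TNF itself. MEKK1, the product of the gene MAP3K1, is a kinase that acts above JNK and ERK.

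The values were compared on a log2 scale after quantile normalization between arrays, so that 1 unit is a 2-fold difference in intensity. As a working level of background, the 99th percentile of 1075 olfactory receptor genes was taken on each array, and it lay between 7.20 and 7.34. The signal of the targeted gene, MAP3K1, did not fall with the MEKK1-/- label. In untreated cells it read 7.95, 7.77, 7.60 and 7.51 on the MEKK1+/+ arrays and 8.06, 8.31, 8.17 and 8.41 on the arrays labelled MEKK1-/-, so the latter all read higher. With CM the genotypes overlapped, at 7.42, 7.71, 8.18 and 7.64 against 8.08, 7.79, 8.29 and 8.13. Whether the probe lies within the deleted part of the gene is not given in the sources used here, so every direction between genotypes below rests on the labels. Of 13 fibroblast markers, 12 were above the background level on all 16 arrays, and the summed intensity of the list ranged from 102000 to 133000. Of 22 macrophage markers, 11 were above it on all arrays, among them CSF1R, CD14, TYROBP, C1QB and C1QC. EMR1 was above it on 15 arrays and CD68 on 14, while ITGAM, PTPRC, MSR1 and FCER1G were above it on none. Epithelial markers summed to between 1466 and 2137 on 14 arrays, against 11848 and 10724 on the untreated and CM arrays numbered 1 of the cultures labelled MEKK1-/-. The sums of endothelial markers were also highest on those arrays, at 2628 and 2742, against 1563 to 1966 on the others.

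On every array 11 of the 39 members stood above the background level. That is 28.2%, against 6923 of all genes, or 38.2%. Another 21 members (53.8%, against 45.5% of all genes) were above it on no array, and 7 were above it on some arrays. An array had between 12 and 15 members above the level. Since arrays give no comparison of level between probes, the members are set against the background level and against themselves, and not against each other.

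Among the ligands, TNFSF13B (BAFF, a survival factor of B cells) was the one above the level on all 16 arrays, between 8.08 and 9.44. TNF was above it on 10 arrays and TNFSF11 (RANKL, the ligand that drives osteoclast formation) on 11. TNFSF9 and TNFSF8 were above it on 3 arrays each and the read-through entry TNFSF12-TNFSF13 on 1. The other 9 ligands, among them LTA, LTB and FASL, were above it on none. LTA lay between 6.73 and 7.06, LTB between 6.74 and 7.05, and FASL, the ligand of FAS, between 6.71 and 7.17.

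The receptors above the level on all arrays were TNFRSF12A (Fn14, the receptor of TWEAK), TNFRSF11B (osteoprotegerin, a secreted decoy receptor of RANKL), FAS, LTBR (the lymphotoxin beta receptor), CD40, TNFRSF1A (the main receptor of TNF), TNFRSF10B (a receptor of TRAIL), TNFRSF21 (death receptor 6) and the mouse receptors TNFRSF22 and TNFRSF26. TNFRSF1B, the other receptor of TNF, was above it on no array and lay between 6.63 and 6.90. TNFRSF19L was above it on 2 arrays and TNFRSF23 on 1. The remaining 11 receptors, like TNFRSF1B, were at background throughout.

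**Figure D1:**
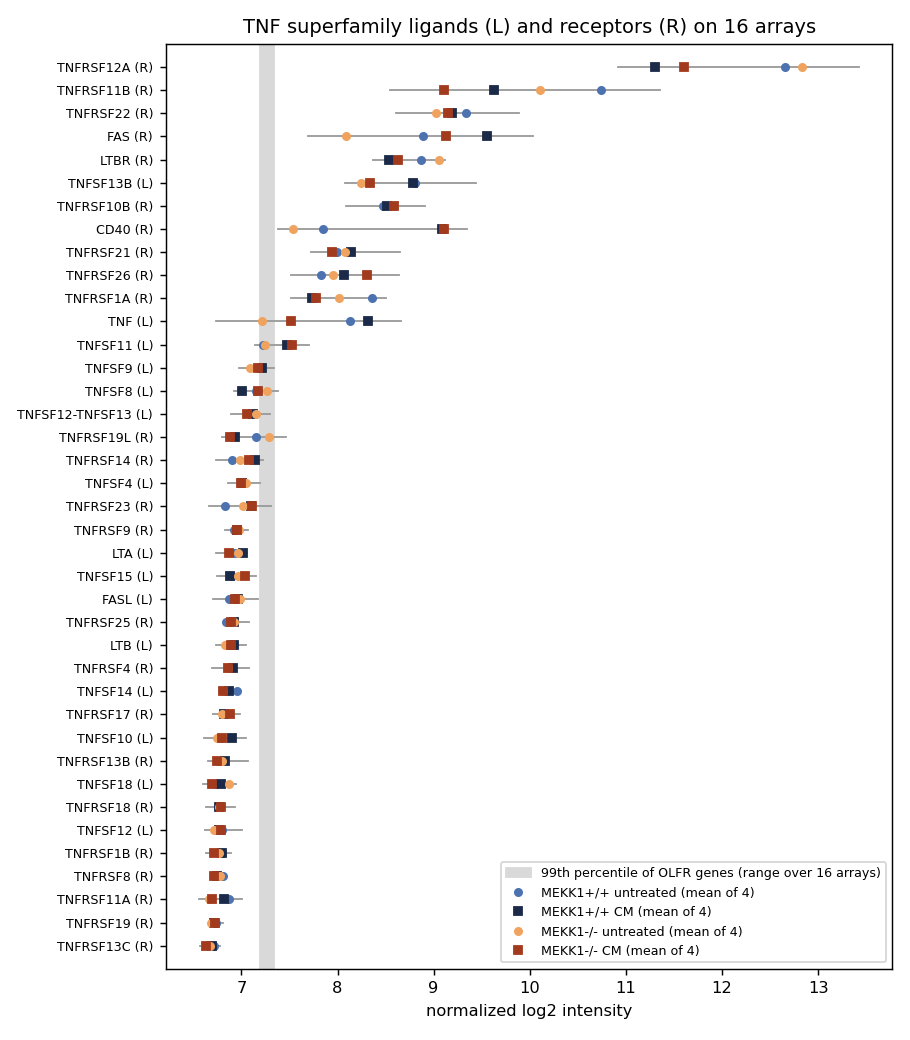
Normalized log2 intensity of the 39 members, ligands marked L and receptors R, ordered by their mean over 16 arrays. Points and squares are means of 4 arrays in each group, grey lines span the lowest to the highest array, and the grey band is the range of the background level. The 11 members at the top lie wholly to the right of the band.

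The first question of the design is how the cells responded to tumor cell medium. In MEKK1+/+ cells CD40 rose and TNFRSF12A and TNFRSF1A fell. In the cells labelled MEKK1-/- CD40 rose and TNFRSF12A, LTBR and, close to background, TNFRSF19L fell. All of these are receptors, and no ligand passed the test in either genotype. Of the 15 ligands only TNFSF13B was above the background level on all arrays, so the test could show little for ligands. In MEKK1+/+ cells 3 of 39 members (7.69%) had an adjusted p under 0.05, against 5.01% of all genes. Of genes above the background level on all arrays 10.6% passed, and 3 of the 11 members there did. In the cells labelled MEKK1-/- 4 of 39 members (10.3%) passed, against 4.69% of all genes. There 9.98% of the genes above the background level passed, as did 3 of the 11 members. The median log2 change of these 11 members was -0.02 in MEKK1+/+ cells and -0.00 in those labelled MEKK1-/-, against -0.00 over all genes in both, with 5 members above 0 and 6 below in each genotype.

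CD40, through which T cells activate B cells, macrophages and also fibroblasts, read 7.64, 7.38, 7.64 and 8.75 on the 4 untreated MEKK1+/+ arrays and 9.28, 8.92, 8.83 and 9.33 with CM. On the arrays labelled MEKK1-/- it read 7.43, 7.68, 7.55 and 7.49 untreated and 9.08, 8.83, 9.18 and 9.35 with CM. The untreated and CM arrays did not overlap in either genotype, and 1 untreated MEKK1+/+ array, replicate 4, came within 0.1 of the lowest CM array. CD40 rose 2.36-fold in MEKK1+/+ cells (log2 change 1.24, SE 0.23, limma adjusted p = 0.00537) and 2.98-fold in those labelled MEKK1-/- (1.57, SE 0.23, limma adjusted p = 0.00107).

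TNFRSF12A, a receptor of wound repair and tissue remodelling, moved the other way. It read 12.63, 12.55, 12.66 and 12.77 on the untreated MEKK1+/+ arrays and 11.69, 11.21, 10.91 and 11.38 with CM, and 13.43, 12.48, 12.76 and 12.68 against 12.07, 11.53, 11.34 and 11.49 on the arrays labelled MEKK1-/-. Every CM array was below every untreated array. The fall was 2.56-fold in MEKK1+/+ cells (log2 change -1.35, SE 0.20, limma adjusted p = 0.00149) and 2.34-fold in those labelled MEKK1-/- (-1.23, SE 0.20, limma adjusted p = 0.00256). The highest and the lowest untreated reading of the MEKK1-/- label were those of replicates 1 and 2, and without both MEKK1-/- arrays numbered 1, the arrays of high epithelial markers, the log2 change there was -1.18.

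TNFRSF12A was 1 of the 2 members that passed in both genotypes, and its promoter is shown for that reason. The 250 bases before its start in RefSeq (GRCm38.p6, chr17:23677450-23677699, minus strand) are printed 5′ to 3′, with matches of the searched motifs in capitals. The motifs, searched on both strands of the 300 bases from 250 before to 50 after the start, were the NF-kB consensus, a looser pattern of GGG, any 5 bases and CC that includes every match of that consensus, the AP-1 pattern TGANTCA and TATAAA.
TNFRSF12A: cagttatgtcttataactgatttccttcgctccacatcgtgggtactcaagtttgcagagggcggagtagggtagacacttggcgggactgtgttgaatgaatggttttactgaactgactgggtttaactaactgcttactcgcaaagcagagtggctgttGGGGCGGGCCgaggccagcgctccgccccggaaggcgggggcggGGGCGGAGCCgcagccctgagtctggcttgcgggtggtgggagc
Both capital stretches match the looser pattern, at bases -88 to -79 and -44 to -35 from the start, and the other motifs had no match in this window. The looser pattern occurs in 50.8% of the 32841 promoters of the table, the NF-kB consensus in 4.51%, TGANTCA in 7.81% and TATAAA in 13.6%. The other member that passed in both genotypes was CD40.

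TNFRSF1A, the death domain receptor that binds TNF on most cells, read 8.47, 8.51, 8.33 and 8.11 on the untreated MEKK1+/+ arrays and 7.98, 7.51, 7.88 and 7.58 with CM. It fell 1.53-fold there without overlap (log2 change -0.61, SE 0.13, limma adjusted p = 0.0114). On the arrays labelled MEKK1-/- it read 7.87, 8.35, 8.02 and 7.81 untreated and 7.68, 7.75, 7.83 and 7.85 with CM, which overlapped (log2 change -0.24, SE 0.13, limma adjusted p = 0.405). The difference between these responses was itself tested and did not pass, at 0.38 on the log2 scale (95% interval -0.01 to 0.76, unadjusted p = 0.053 and adjusted p = 1.00 by limma).

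LTBR, which signals to the alternative NF-kB pathway, showed the reverse pattern of calls. On the arrays labelled MEKK1-/- it read 9.08, 9.03, 9.11 and 9.0 untreated and 8.43, 8.81, 8.56 and 8.69 with CM, a fall of 1.35-fold (log2 change -0.43, SE 0.10, limma adjusted p = 0.0247). On the MEKK1+/+ arrays it read 8.70, 9.10, 8.95 and 8.74 untreated and 8.51, 8.78, 8.37 and 8.49 with CM, with a change of -0.33 that did not pass (SE 0.10, limma adjusted p = 0.0811). The responses differed by -0.10 between genotypes (95% interval -0.41 to 0.21). The call on the arrays labelled MEKK1-/- was lost when any of replicates 1, 3 and 4 was left out of either condition there (limma adjusted p from just over 0.05 to 0.0761), and without both arrays numbered 1 (0.109). On the values as deposited the change was about as large, -0.46, with a limma adjusted p of 0.781.

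TNFRSF19L passed in the cells labelled MEKK1-/- as well, at a level close to background. It read 7.23, 7.22, 7.23 and 7.47 untreated and 6.94, 6.86, 6.83 and 6.87 with CM (log2 change -0.41, SE 0.07, limma adjusted p = 0.00325). Only 1 of the 4 untreated arrays, and none of the 4 treated arrays, was above the background level, so no fold is given. In MEKK1+/+ cells the change was -0.22 (limma adjusted p = 0.0997). TNFRSF19L is an older symbol of RELT, which the table also lists as a gene of its own, and that entry changed by -0.10 in the cells labelled MEKK1-/- (limma adjusted p = 0.525). On the values as deposited the TNFRSF19L call was lost as well, at a change of -0.39 (limma adjusted p = 0.604).

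**Figure D2:**
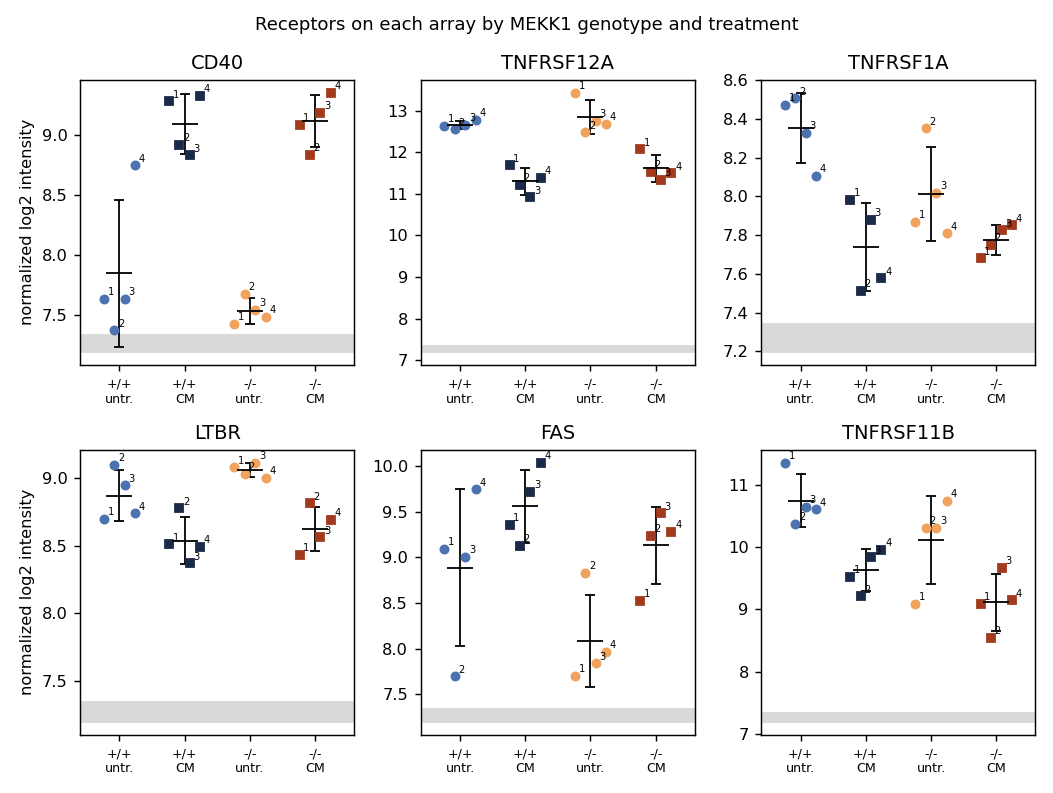
Normalized log2 intensity of 6 receptors on each array by genotype and treatment, with replicate numbers beside the points, the mean and SD of 4 arrays in black, and the range of the background level as a grey band. The CM arrays of CD40 lie above, and those of TNFRSF12A below, the untreated arrays of both genotypes.

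FAS, the death receptor of T cell killing, spread widely between replicates. It read 9.09, 7.70, 9.01 and 9.75 on untreated MEKK1+/+ arrays and 9.35, 9.12, 9.71 and 10.04 with CM, and 7.70, 8.83, 7.84 and 7.96 against 8.52, 9.24, 9.48 and 9.28 on the arrays labelled MEKK1-/-. Untreated and CM arrays overlapped in both genotypes. The log2 changes were 0.67 (SE 0.37, limma adjusted p = 0.398) and 1.05 (SE 0.37, limma adjusted p = 0.137). Over all genes, replicates of the same number deviated together in the cultures labelled MEKK1-/-, though replicates 3 and 4 did so across numbers as well. For FAS itself, replicates 3 and 4 were below their group mean untreated (8.08) and above it with CM (9.13). With the number within genotype as a block the change of 1.05 passed (limma adjusted p = 0.0154, and up to 0.703 over the alternatives).

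TNFRSF11B, the decoy of RANKL, read 11.35, 10.37, 10.65 and 10.60 on untreated MEKK1+/+ arrays and 9.52, 9.21, 9.83 and 9.96 with CM. These did not overlap, and the log2 change of -1.11 missed the threshold (SE 0.32, limma adjusted p = 0.0589). On the arrays labelled MEKK1-/- it read 9.09, 10.31, 10.30 and 10.74 untreated and 9.09, 8.55, 9.67 and 9.14 with CM, a change of -1.0 (SE 0.32, limma adjusted p = 0.099). The untreated value of 9.09 is that of replicate 1, an array of high epithelial markers. Without that array the changes were -1.12 and -1.34 and both passed (limma adjusted p = 0.0146 and 0.0105). These were the lowest p with a single array left out, and leaving out others took it as far as 0.17 and 0.27. Since the value of that array went against its group, these passes add no support. Over the 30 alternatives the change passed in 7 in MEKK1+/+ cells and in 4 in those labelled MEKK1-/-. The lowest adjusted p in MEKK1+/+ cells was 0.000848, by a z-test on z-scores that makes p too small with 4 arrays. The part of these markers in the result was not tested.

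TNFSF11, the ligand that TNFRSF11B binds, lay near the background level, between 7.14 and 7.41 untreated and between 7.30 and 7.70 with CM. Its log2 change was 0.24 in MEKK1+/+ cells (limma adjusted p = 0.19) and 0.27 in those labelled MEKK1-/- (limma adjusted p = 0.131). In the latter, untreated and CM arrays did not overlap, and with the replicate block the change passed (limma adjusted p = 0.0211, and from 0.0164 to 1.00 over the alternatives). TNF itself changed by 0.19 and 0.30 with CM (SE 0.38 for both, limma adjusted p = 0.897 and 0.819), and its wide intervals, from -0.63 to 1.01 and from -0.52 to 1.11, leave a rise of 2-fold within them.

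TNFRSF26 read between 7.71 and 8.11 untreated and between 8.13 and 8.64 with CM on the arrays labelled MEKK1-/-, without overlap, and its change of 0.36 did not pass (limma adjusted p = 0.186). TNFRSF22 changed by -0.15 and 0.12, TNFRSF10B by 0.03 and -0.00, TNFRSF21 by 0.15 and -0.14, and TNFSF13B by -0.02 and 0.10, none of which passed. Treated and untreated arrays did not overlap for 7 of 39 members in MEKK1+/+ cells (9.7% of all genes) and for 6 in those labelled MEKK1-/- (10.4% of all genes). In MEKK1+/+ cells LTA, TNFRSF14 and TNFSF14 were among the 7, at or below the background level. Among the 21 members at background on all arrays, the largest difference in either genotype was 0.23.

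**Figure D3:**
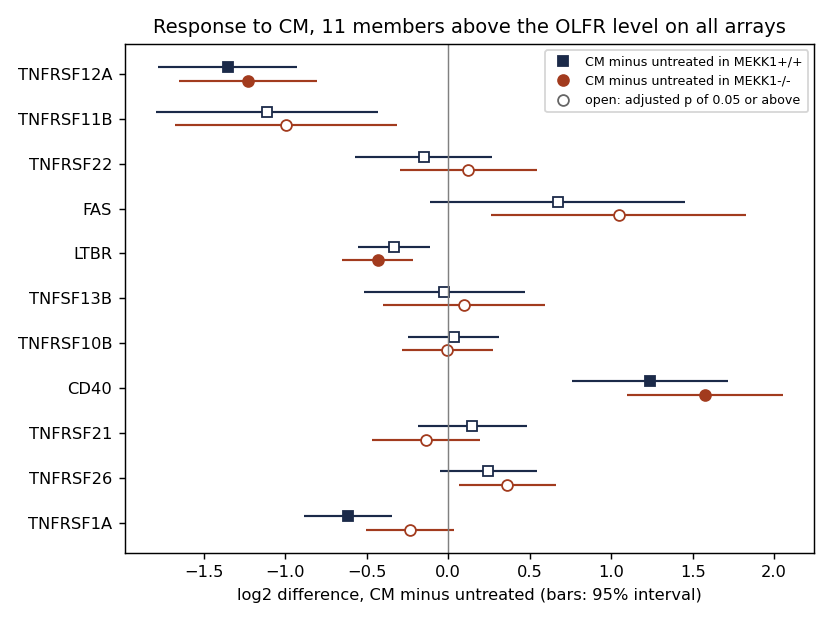
Log2 change with CM of the 11 members above the background level on all arrays, in MEKK1+/+ cells (squares) and in cells labelled MEKK1-/- (circles), with 95% intervals. Filled symbols passed an adjusted p of 0.05. CD40 lies to the right in both genotypes and TNFRSF12A to the left.

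The second question is whether the members depend on MEKK1. No member passed between genotypes, in untreated cells (0% of all genes passed) or with CM (0.00552%, a single gene). By the unadjusted limma p, 7 of 39 members (17.9%) were under 0.05 in untreated cells, against 9.27% of all genes. They were FAS, TNF, TNFSF13B, TNFRSF1A and, at or near background, TNFRSF11A, TNFRSF23 and TNFSF14. With CM 3 members were (7.69%), against 8.09% of all genes, and all 3 (LTA, TNFSF15 and TNFSF8) were at or near background. The arrays of the genotypes did not overlap for 2 members untreated, TNFRSF19L and TNFSF14 (4.61% of all genes), and for 2 with CM, LTA and TNF (4.17% of all genes).

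TNF was the largest of these differences. It read 8.66, 6.87, 8.48 and 8.51 on the untreated MEKK1+/+ arrays and 6.97, 8.21, 6.95 and 6.74 on those labelled MEKK1-/-. With CM it read 8.24, 8.03, 8.60 and 8.41 against 7.82, 8.03, 7.12 and 7.08. Replicate 2 went against the rest in both untreated groups, and with CM the genotypes were separated by under 0.01 at replicate 2. The log2 difference, MEKK1-/- minus MEKK1+/+, was -0.92 untreated (95% interval -1.73 to -0.10, limma adjusted p = 0.52, exact permutation p = 0.114) and -0.81 with CM (-1.63 to 0.01, limma adjusted p = 0.62, exact permutation p = 0.0286, the smallest that 4 against 4 arrays allow).

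Macrophage markers are set beside TNF here, array by array. The summed intensity of the 22 markers ran over 85376, 33517, 75937 and 58655 on the untreated MEKK1+/+ arrays and 78642, 28172, 76267 and 59738 with CM, and over 35224, 68165, 14429 and 15691 against 39933, 58037, 15011 and 15928 on the arrays labelled MEKK1-/-. The sums add linear intensities, so they are weighted to the markers of highest signal, LYZ and LYZ2. On untreated MEKK1+/+ replicate 1 these read 15.18 and 14.48 on the log2 scale. The 10 arrays with TNF above background had sums from 28172 to 85376, and the 6 arrays without had sums from 14429 to 35224. These ranges overlap. MEKK1+/+ CM replicate 2 read 8.03 for TNF at a sum of 28172. The untreated array labelled MEKK1-/- replicate 1 read 6.97 at 35224. Among untreated arrays, those numbered 2 went against their group in both measures. With CM both arrays numbered 2 read 8.03 for TNF, at sums of 28172 and 58037. In both measures these were again the lowest array of MEKK1+/+ and the highest of those labelled MEKK1-/-. The median log2 difference of the markers between genotypes was -0.76 untreated and -0.66 with CM, with 19 and 20 of 22 below 0 and 0 passing the test, whereas with CM against untreated it was -0.04 and -0.02. In bulk RNA fewer cells of a type and less RNA per cell cannot be told apart, and the part of these markers in the TNF values was not tested.

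FAS and TNFSF13B were read on the same arrays. FAS differed between genotypes by -0.80 untreated (95% interval -1.58 to -0.02, limma adjusted p = 0.535) and -0.43 with CM. Its low untreated MEKK1+/+ value, 7.70, was that of replicate 2, and its high value among the untreated arrays labelled MEKK1-/-, 8.83, was also that of replicate 2. TNFSF13B read 8.76, 8.16, 8.87 and 9.44 on untreated MEKK1+/+ arrays and 8.29, 8.44, 8.17 and 8.08 on those labelled MEKK1-/-, a difference of -0.56 (-1.06 to -0.07, limma adjusted p = 0.52), and differed by -0.44 with CM. The part of the macrophage markers in these values was not tested either. TNFRSF1A differed by -0.34 untreated (limma adjusted p = 0.498) and 0.04 with CM, and TNFRSF11B by -0.63 and -0.52 (limma adjusted p = 0.562 and 0.687).

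**Figure D4:**
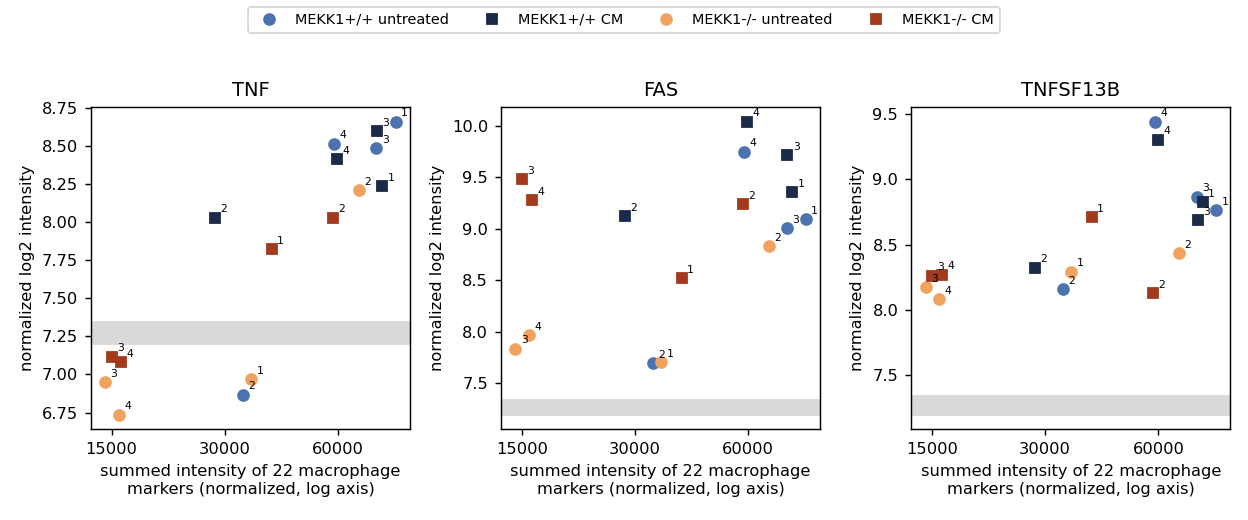
Normalized log2 intensity of TNF, FAS and TNFSF13B against the summed intensity of 22 macrophage markers (log axis), 1 point per array with its replicate number, colored by group, with the background level as a grey band. For TNF, the 6 arrays at or below the band have sums of at most 35224, and those above it go down to 28172.

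Whether the response to CM differed between genotypes was tested as an interaction, and no member passed (0% of all genes did). By unadjusted limma p 1 member, LTA at background, was under 0.05, against 2.61% of all genes. The response of CD40 was larger by 0.34 in cells labelled MEKK1-/- (95% interval -0.34 to 1.02), that of TNFRSF12A differed by 0.12 (-0.48 to 0.73) and that of FAS by 0.37 (-0.73 to 1.48). These intervals do not show that the genotypes responded alike.

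The genes through which the receptors signal were taken from 6 lists of pathway genes, and none of them passed between genotypes or in the interaction. Of 14 NF-kB subunits and feedback inhibitors, 1 rose in MEKK1+/+ cells and 5 rose in those labelled MEKK1-/-, where 5.01% and 4.69% of all genes passed in either direction (10.6% and 9.98% of those above the background level), so that 1 of 14 is near the share of all genes. The median change was 0.39 and 0.74, against -0.00 over all genes in both. NFKB2, the subunit of the alternative pathway that LTBR and CD40 use, rose by 0.93 and 1.28 (limma adjusted p = 0.0113 and 0.00152). In the cells labelled MEKK1-/- the inhibitor NFKBIA rose by 1.89, NFKBIZ by 2.02, TNIP1 by 1.26 and BCL3 by 0.88. Their changes in MEKK1+/+ cells were 1.08, 1.32, 1.08 and 0.66 without passing, and the differences between genotypes did not pass either. Untreated, these genes differed by -1.03, -1.12, -0.76 and -0.41, MEKK1-/- minus MEKK1+/+, so the larger rises began from lower readings. Of the 14 genes 13 were below 0 in that comparison (median -0.33), and 9 were with CM (median -0.05).

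Among adaptors and kinases bound by the receptors, 17 of 22 were measured and 1 fell in both genotypes, a count near the share of all genes. This was FADD, the adaptor between death receptors and caspase 8, with log2 changes of -0.61 and -0.51 (limma adjusted p = 0.00772 and 0.0206). Of 15 measured genes of death receptor apoptosis, CASP9 rose by 0.29 in MEKK1+/+ cells (limma adjusted p = 0.0217). No other gene of that list passed in either genotype, so that 1 of 15 and 0 of 15 were called. These counts are near or below the shares of all genes that passed, 5.01% and 4.69%. Of 7 measured genes named for induction by TNF or for TNF-like domains, TNFAIP2 rose by 0.87 and 0.85 and TNFAIP8 rose by 0.91 in the cells labelled MEKK1-/-, against 0.53 without passing in MEKK1+/+ cells, a difference that did not pass. Of 6 genes of shedding, RHBDF2, which escorts the TNF convertase ADAM17, rose by 0.42 and 0.53 (limma adjusted p = 0.0399 and 0.012), and TIMP3, an inhibitor of that convertase, fell by 0.90 and 0.99 on the log2 scale (limma adjusted p = 0.0026 and 0.00127). Of 8 measured superfamily genes under other symbols none passed, and NGFR was the one above background on all arrays. The median log2 changes with CM of these other 5 lists lay between -0.08 and 0.14 over both genotypes.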

How the data were processed

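Per the labels, a core facility normalized the arrays and only normalized data were kept. For each of 18132 symbols the authors deposited 1 linear intensity value per array. The normalization, the background correction and the merging of probes are not given in the sources used here. Array medians ran from 114 to 170.1. The deposited intensity values were turned to log2 and quantile normalized. Precision is limited by 4 arrays per group. Within-group correlations were 0.979 to 0.996 and 0 columns were identical.

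The 4 groups were fitted together in limma 3.58.1 (R 4.3.3) with 12 residual degrees of freedom. Adjusted p values are Benjamini-Hochberg over all genes, threshold 0.05. Exact permutation tests were 2-sided. The steps were tested on simulated data. The members and lists were chosen with earlier results of these data known. Members named were those passing any test, those spelled out in the choice, TNFRSF1A, TNFRSF1B, the 6 of highest mean and those above background in a group without overlap; the rest are given as counts, ranges or single changes. Of the 39 symbols 37 matched RefSeq (GRCm38.p6) by symbol and 2 by an older one, and 31 had a promoter.

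Deviations from group means correlated between same-numbered untreated and CM arrays at 0.51, 0.40, 0.22 and 0.25 in the cultures labelled MEKK1-/-, and at -0.04, 0.48, 0.12 and 0.58 in MEKK1+/+ cultures. By the rule that every same-numbered pair exceed 0.1, the numbers were taken to pair the former. Replicates 3 and 4 there correlated at least as well across numbers (0.54 for untreated 4 with CM 3, 0.28 for untreated 3 with CM 4), so the pairing of these is not specific. Alternatives covered normalization, test, filter, weights, blocks, threshold and each array left out.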

Additional observations from a re-analysis of the deposited data

Results flagged for a closer look

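Each of 16 named members was examined in its 4 groups for an array far from the other 3, and 5 of 64 groups held one, where chance gives about 1 in 20. TNF on MEKK1+/+ untreated replicate 2 read 6.87 against 8.48 to 8.66, and on the untreated array labelled MEKK1-/- replicate 2 it read 8.21 against 6.74 to 6.97. TNFRSF19L on the untreated array labelled MEKK1-/- replicate 4 read 7.47 against 7.22 to 7.23. TNFSF11 on MEKK1+/+ untreated replicate 3 read 7.41 against 7.14 to 7.18. TNFRSF1B on the CM array labelled MEKK1-/- replicate 2 read 6.63 against 6.73 to 6.74, all at background.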

How the results depend on the processing

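The members that passed with CM in MEKK1+/+ cells numbered 3, and 9 by the z-test on z-scores that the methods name, 7 with array weights, 5 with the replicate block, 6 with the replicate block within genotype, 2 (CD40 and TNFRSF12A) where a log2 change of 1 was also asked, and 3 to 5 with each array left out, the 5 without MEKK1+/+ CM replicate 2. In the cells labelled MEKK1-/- they numbered 4, and 2 on the values as deposited, 2 (again CD40 and TNFRSF12A) where that change was asked, 8 by the z-test, 6 with the replicate block within genotype and 3 to 5 with each array left out. In the paired cultures the block made FAS and TNFSF11 pass and changed no other call among the members named, and the replicate numbers did not pair the MEKK1+/+ cultures by the check used. Between genotypes untreated the count of 0 became 1 by the z-test, and 2 without both untreated arrays numbered 2, where TNF differed by -1.65 (limma adjusted p = 0.00402) and FAS by -1.44 (limma adjusted p = 0.0274). Those arrays were left out after seeing the data because their values went against their group, so this adds no support. On the values as deposited LTA changed sign, to -0.18 with CM in MEKK1+/+ cells and 0.17 between genotypes with CM, where the median of all genes moved by -0.28 and 0.28. LTBR in MEKK1+/+ cells passed as deposited (limma adjusted p = 0.0403) and in 7 other settings, with p from 0.0136 to 0.0447 over these. The cause was not tested. CD40 and TNFRSF12A in both genotypes and TNFRSF1A in MEKK1+/+ cells had an adjusted p under 0.05 in all 30 settings run at that threshold alone, and TNFRSF1A (-0.61) did not reach a log2 change of 1. Of 737 single values recomputed, 696 kept direction and side of the threshold, 9 no longer passed, 30 newly passed and 2 changed sign. The 11 members above background became 12 with the 95th percentile of the olfactory receptor genes and 8 with their highest. The mean over entries of a symbol was not run, since no symbol has several. Genes near background limit what these arrays show, since a change there is compressed.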
